A study of Branchiostoma belcheri with 3 samples.

Results

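The miR-1, miR-206 and miR-133 probes of the array were examined in 3 organs of the amphioxus Branchiostoma belcheri. A probe was taken as a member when its name, after any species prefix, was miR-1, miR-206 or miR-133, with or without a letter or arm. This gave 35 of 1686 miRNA probes, of which 17 were named miR-1, 1 was named miR-206 and 17 were named miR-133. Of these, 2 carried B. belcheri sequences (prefix bbe) and 1 a sequence of the related amphioxus B. floridae (bfl). The others carried sequences of zebrafish (dre, 7 probes), lamprey (pma, 9), the frog Xenopus (xtr, 6), the tunicates Ciona (cin, 4) and Oikopleura (odi, 3), an acorn worm (sko, 2) and a sea urchin (spu, 1). The study profiled miRNAs in the gill, the intestine and the hepatic caecum (a blind pouch that branches off the gut) in untreated adults, and the tissue of 5 adults was pooled for each organ. Each organ had 1 array, so no difference between organs has a replicate check, and array and organ cannot be told apart. No miRNA markers of these organs were fixed, so the organ labels were not checked in this way.

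MicroRNAs are short RNAs that repress messenger RNAs, mainly through pairing of their seed, bases 2 to 8 from the 5′ end. In vertebrates and flies miR-1 is a miRNA of muscle, and in many animals miR-1 and miR-133 are made from neighbouring hairpins. In cultured mouse myoblasts miR-1 promotes differentiation and miR-133 proliferation. The vertebrate miR-206 is a relative of miR-1 that has the same seed and is enriched in skeletal muscle. A hairpin has 2 arms, and the mature miR-1 and miR-133 come from the 3p arm, while the 5p arm gives the partner strand.

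The target sequences of the miR-1 and miR-206 probes are shown first, because detection differed between probes that differed at few bases. They were copied from the deposited array annotation and are written 5′ to 3′ with the seed in capitals.
dre-miR-1: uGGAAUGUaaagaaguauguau
xtr-miR-1a: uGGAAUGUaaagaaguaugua
pma-miR-1c-3p: uGGAAUGUaaagaaguauguac
cin-miR-1-3p: uGGAAUGUaaagaaguaugcgu
pma-miR-1a-3p: uGGAAUGUaaagaaguacguug
pma-miR-1b: uGGAAUGUaaagaaguaugggu
odi-miR-1c: uGGAAUGUaaagaaguauguga
xtr-miR-1b: uGGAAUGUuaagaaguaugua
sko-miR-1-3p: uGGAAUGUaaugaaguauguau
dre-miR-206: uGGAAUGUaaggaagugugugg
All 10 share the seed GGAAUGU. Substitutions below are counted from 1 at the 5′ end of dre-miR-1, with its base first and the base of the other probe's target last.

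The B. belcheri and B. floridae members are shown next to the zebrafish or acorn worm probes they resemble.
bbe-miR-1-3p: aAGUACUUcuuuacuaucccau
sko-miR-1-5p: aCGUACUUcuuuauaauuccaua
bbe-miR-133-3p: aGCUGGUAaauuggaaccaaau
dre-miR-133a-5p: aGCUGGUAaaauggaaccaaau
bfl-miR-133: uGGUCCCCuucaaccagcugua
dre-miR-133a-3p: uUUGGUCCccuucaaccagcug
Despite its name, bbe-miR-1-3p matched sko-miR-1-5p at 18 of 22 aligned bases and dre-miR-1 at 6 of 22. Likewise bbe-miR-133-3p matched dre-miR-133a-5p at 21 of 22 bases, with A11U as the substitution, and dre-miR-133a-3p at 11 of 21. By sequence, both B. belcheri members were therefore grouped with the 5p arm. The B. floridae probe bfl-miR-133 matched dre-miR-133a-3p at 20 of 20 aligned bases but starts at base 3 of it, so its seed is GGUCCCC where that of dre-miR-133a-3p is UUGGUCC. No member with a bbe or bfl prefix carried the mature 3p sequence of miR-1, which was read through the probes of other species. Of the miR-1 members 12 were of the 3p type and 5 of the 5p type, and of the miR-133 members likewise 12 and 5.

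Values are spot densities, linear scanner intensities without background subtraction, given as the mean ± SD of the 2 spots of a probe on 1 array. This error is technical and covers neither animals nor arrays. A probe was called detected when its mean exceeded the mean of the 304 spots without a probe (blank spots) by more than 3 SDs. The blank spots of gill, intestine and hepatic caecum averaged 107.4 ± 10.6 (SD), 115.4 ± 34.9 and 185.4 ± 144.2, and the thresholds were therefore 139.2, 220.1 and 617.9. The names deposited for the hepatic caecum array could not be used as they stood. Among 15872 placements of its grid, the control spots correlated best with those of the other arrays when the grid was turned by 180 degrees (r = 0.977 against 0.261 as deposited). With the rows mirrored r was nearly as high (0.970), but the miRNA spots, which had no part in that search, correlated with r = 0.870 when turned and -0.009 when mirrored. Hepatic caecum values are given in the turned placement unless stated.

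On the gill array 15 of the 35 members were detected, or 42.9%, beside 27% of all 1686 miRNA probes. These were 7 miR-1 probes, dre-miR-206 and 7 miR-133 probes. On the intestine array 4 members were detected, all of them miR-1 probes, or 11.4% beside 11.9% of all probes. On the hepatic caecum array 0 of 35 passed its high threshold, beside 7.18% of all probes. The threshold there was raised by a minority of bright blank spots, which reached 1548.7 around a median of 156.4. With a threshold that such spots move less, called the median-based threshold here (median plus 3 scaled median absolute deviations, MADs, of the blank spots), 16, 7 and 6 members passed in gill, intestine and hepatic caecum, beside 28.2%, 19% and 19% of all probes. The hepatic caecum threshold was then 201.0.

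**Figure D1:**
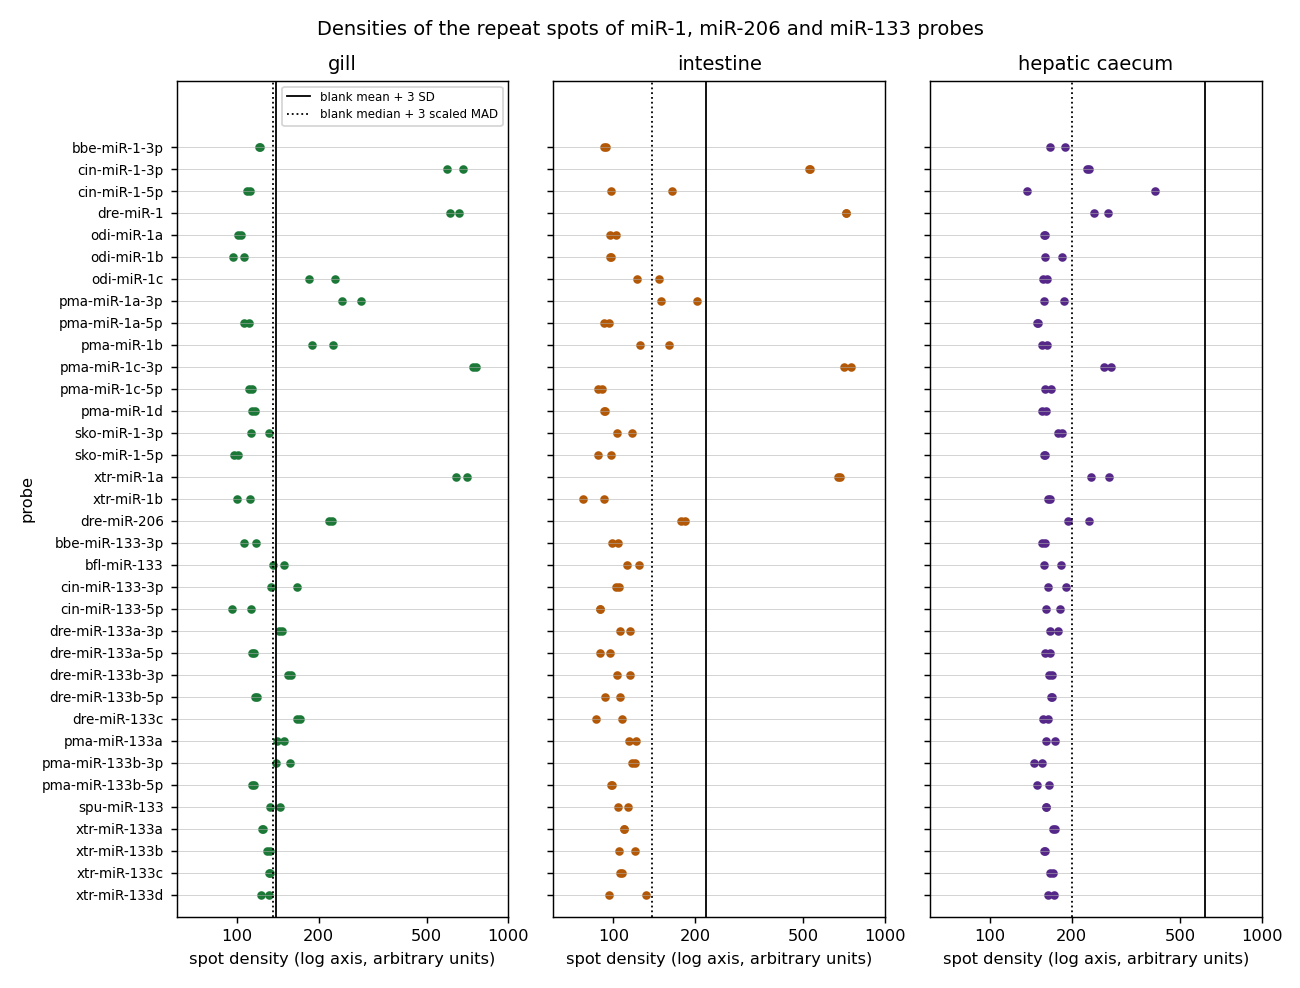
Density of each of the 2 spots (points, log axis) of the 35 member probes on the gill, intestine and hepatic caecum arrays; the solid line is the detection threshold and the dotted line the median-based threshold. The same 4 miR-1 probes stand out at 633.3 to 748.1 in gill and 529.0 to 725.9 in intestine, and lie at 229.1 to 269.6 in hepatic caecum, where 1 spot of cin-miR-1-5p is brighter.

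The mature miR-1 sequence was measured by 4 probes that passed in both gill and intestine. The zebrafish probe dre-miR-1 had densities of 633.3 ± 34.6 in gill, 717.0 ± 0.792 in intestine and 256.9 ± 22.5 in hepatic caecum. The frog probe xtr-miR-1a, which lacks only the last base of dre-miR-1, had 672.8 ± 43.3, 675.6 ± 9.33 and 254.4 ± 27.2. For both, the gill and intestine densities were close to each other and the hepatic caecum density was well below them.

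The lamprey probe pma-miR-1c-3p, with the substitution U22C, had 748.1 ± 11.9 in gill, 725.9 ± 30.3 in intestine and 269.6 ± 11.2 in hepatic caecum. The Ciona probe cin-miR-1-3p, with U20C and A21G, had 635.7 ± 59.4, 529.0 ± 2.92 and 229.1 ± 2.1. Intestine was thus above gill for dre-miR-1 and below it for cin-miR-1-3p, so the order of these organs was not settled by density. In density hepatic caecum came last for all 4, but densities were not scaled between arrays. Its place against gill depended on the scaling, as given below. These probes can bind the same miRNA and are not separate measurements. No blank spot was brighter than any of them in gill or intestine (0 of 304), and in hepatic caecum 16 to 18 blank spots were. In RNA of whole organs, fewer cells that hold a miRNA and less of it per cell cannot be told apart.

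A further 3 miR-1 probes and the miR-206 probe passed the detection threshold in gill alone. Their target sequences differ from dre-miR-1 in the last bases or, for miR-206, also in the middle. The lamprey probe pma-miR-1a-3p (U18C, A21U and U22G) had 264.4 ± 30.9 in gill, 177.1 ± 37.6 in intestine and 172.6 ± 20.6 in hepatic caecum. The lamprey probe pma-miR-1b (U20G and A21G) had 207.4 ± 26.0, 142.6 ± 24.8 and 159.1 ± 4.25. The Oikopleura probe odi-miR-1c (A21G and U22A) had 206.7 ± 32.2, 134.6 ± 18.2 and 159.2 ± 3.54. In hepatic caecum all 3 lay within the bulk of the blank spots, of which at least 51 were brighter than each. In intestine pma-miR-1a-3p and pma-miR-1b passed the median-based threshold of 139.2. The gill densities of pma-miR-1b and odi-miR-1c were under the intestine detection threshold of 220.1, so an equal density there would have gone undetected. Detection in gill alone therefore does not show that these sequences were particular to gill. For pma-miR-1a-3p and dre-miR-206 the gill densities, 264.4 and 221.3, were over 220.1, so an equal density in intestine would have been detected. Both passed the median-based threshold in intestine, and densities were not scaled between arrays.

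The miR-206 sequence was carried by dre-miR-206 alone, which has A11G, A17G, A21G and U22G relative to dre-miR-1. Its densities were 221.3 ± 4.06 in gill, 181.0 ± 3.92 in intestine and 212.1 ± 26.8 in hepatic caecum. It passed the detection threshold in gill, and the median-based threshold in all 3 organs. In hepatic caecum its spots were at 231 and 193, and the dimmer one was under that threshold of 201.0. Since dre-miR-206 shares 18 of 22 bases with dre-miR-1, its signal cannot be assigned to a separate miR-206.

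Other members with the same seed were near the level of the blank spots in all organs. The frog probe xtr-miR-1b differs from xtr-miR-1a by A9U and has the same length of 21 nt. Its densities were 106.1 ± 8.34 in gill, 84.3 ± 10.7 in intestine and 164.6 ± 1.39 in hepatic caecum. The acorn worm probe sko-miR-1-3p differs from dre-miR-1 by A11U, and had 121.8 ± 12.8, 110.1 ± 9.92 and 181.4 ± 4.16. Both fell below the detection threshold and the median-based threshold on all 3 arrays, whereas dre-miR-1 passed the former on 2 arrays and the latter on 3.

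Sorted by the first base at which they differ from dre-miR-1, a sorting made after the values were seen, the 5 probes that first differ at base 18 or later were all detected in gill and 2 of them in intestine. Of the 5 that first differ at bases 9 to 12, 1 was detected in gill, namely dre-miR-206, and 0 in intestine. Of all miRNA probes 27% were detected in gill and 11.9% in intestine. Beside these shares, the low counts among the 5 probes that first differ at bases 9 to 12 say little. The Oikopleura probes odi-miR-1a and odi-miR-1b, in this group with A9U, had 102.4 and 101.5 in gill and 99.5 and 97.3 in intestine. The lamprey probe pma-miR-1d, whose seed GGCUUUA is another, had 115.7 in gill, 92.5 in intestine and 157.8 in hepatic caecum and was not detected. The 5p-type miR-1 probes were not detected on any array, with means of 99.1 to 121.5 in gill, 89.5 to 131.2 in intestine and 149.9 to 271.7 in hepatic caecum. Among them, bbe-miR-1-3p had 121.5 ± 1.0, 92.6 ± 1.54 and 177.8 ± 15.6.

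**Figure D2:**
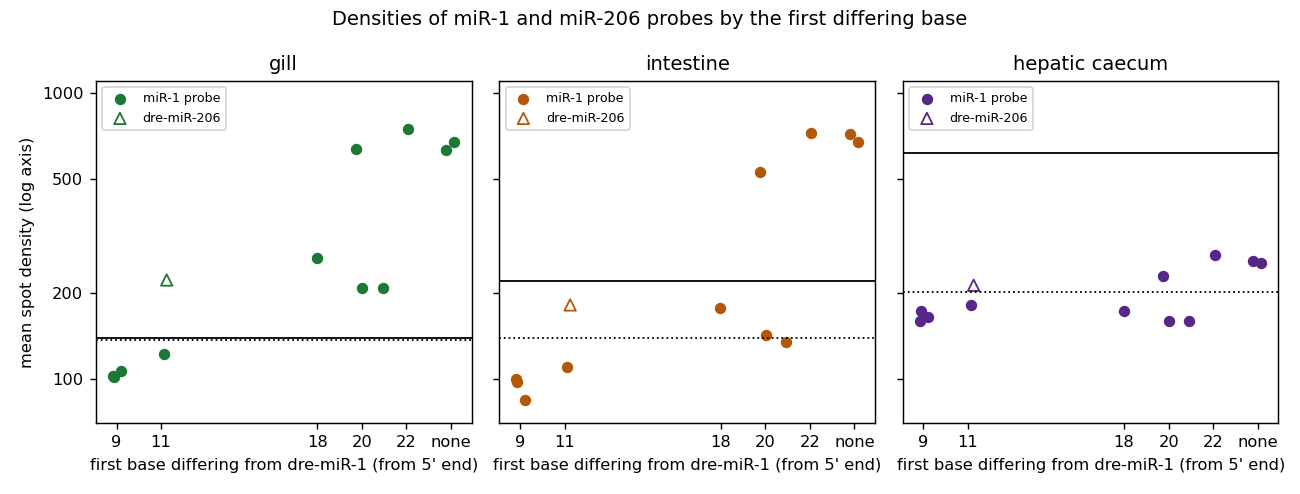
Mean density (log axis) of the 11 miR-1 probes with the miR-1 seed and of dre-miR-206, by the first base at which the target differs from dre-miR-1 ("none" holds dre-miR-1 and the shorter xtr-miR-1a); solid lines are the detection thresholds and dotted lines the median-based ones. In gill every miR-1 probe that first differs at base 18 or later lies above the threshold of 139.2 and every miR-1 probe that first differs at base 9 or 11 lies below it.

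The miR-133 probes passed in gill by small margins. The 7 detected were bfl-miR-133, cin-miR-133-3p, dre-miR-133a-3p, dre-miR-133b-3p, dre-miR-133c, pma-miR-133a and pma-miR-133b-3p, all of the 3p type. The zebrafish probe dre-miR-133c, with C10U and G22A relative to dre-miR-133a-3p, had 168.4 ± 3.34 in gill, 96.7 ± 15.5 in intestine and 159.7 ± 4.38 in hepatic caecum. For dre-miR-133b-3p (G22A) the densities were 156.8 ± 2.52, 108.9 ± 9.05 and 166.9 ± 2.88. Both exceeded the gill threshold and stayed under those of the other organs. The Ciona probe cin-miR-133-3p, whose target begins at base 2 of dre-miR-133a-3p, had 150.3 ± 23.8, 103.4 ± 2.1 and 177.1 ± 19.7.

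The lamprey probe pma-miR-133a had 145.2 ± 5.86 in gill, 117.5 ± 5.35 in intestine and 166.9 ± 8.9 in hepatic caecum, and pma-miR-133b-3p had 148.4 ± 11.6, 118.5 ± 1.71 and 150.1 ± 7.85. They passed the gill threshold as well, by less than 1 SD of the blank spots. The zebrafish probe dre-miR-133a-3p had 145.0 ± 2.41 in gill, 110.6 ± 6.55 in intestine and 172.6 ± 7.71 in hepatic caecum. The amphioxus probe bfl-miR-133 had 142.4 ± 8.66, 118.0 ± 8.58 and 170.0 ± 17.1. It was the member just inside the gill threshold, and spu-miR-133, at 138.9 ± 7.81, was the member just outside it. In intestine the members nearest the threshold were cin-miR-1-3p above it and dre-miR-206 below it, and in hepatic caecum the nearest below was cin-miR-1-5p at 271.7 ± 190.5. The detected set of miR-133 probes is therefore sensitive to the threshold, and 8 passed the median-based one. No miR-133 probe reached the lower of the intestine thresholds, 139.2, or that of the hepatic caecum.

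The 12 miR-133 probes of the 3p type had gill densities of 124.1 to 168.4, beside a median of 115.9 over all 1686 miRNA probes. No more than 7 of the 304 blank spots were brighter than any of them, which also held for 36.2% of all miRNA probes. The 5 probes of the 5p type had 104.4 to 118.2 in gill, where 36 to 183 blank spots were brighter. In intestine the 3p-type probes ran from 96.7 to 118.5, beside a median of 102.0 over all probes, and in hepatic caecum from 150.1 to 177.1, beside 165.4. The B. belcheri probe bbe-miR-133-3p, of the 5p type by sequence, had 112.1 ± 8.73 in gill, 101.1 ± 3.42 in intestine and 157.8 ± 3.14 in hepatic caecum. The gill densities of the detected miR-133 probes were all under the intestine threshold of 220.1, and an equal density in intestine would have gone undetected by it. They were all over the median-based intestine threshold of 139.2, which an equal density would have passed and no miR-133 probe did. Densities were not scaled between arrays.

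**Figure D3:**
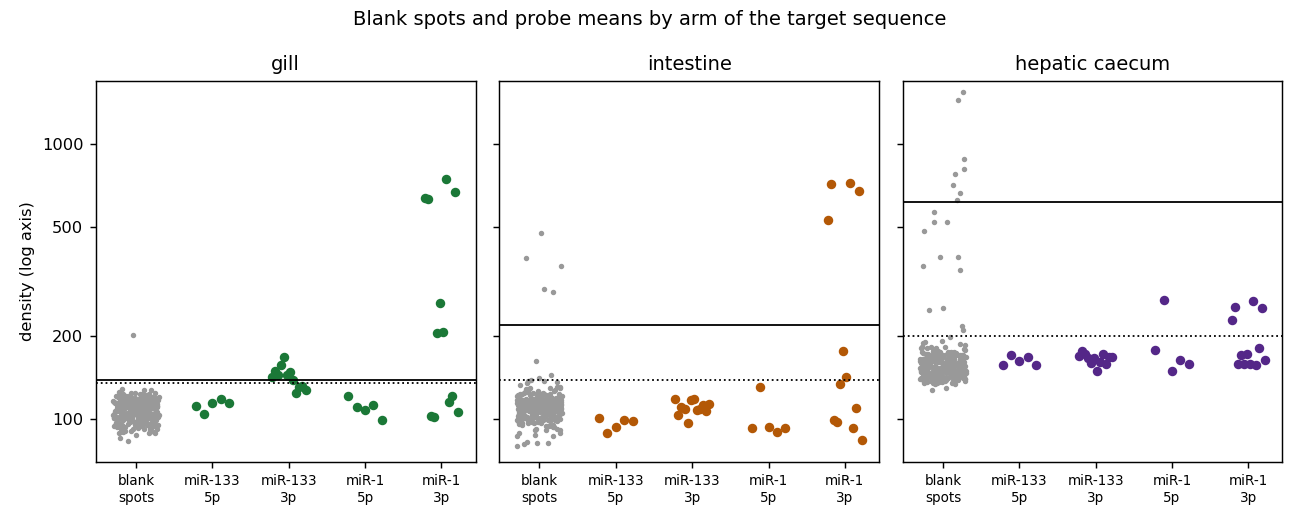
Densities (log axis) of the 304 blank spots (grey points) and probe means of the miR-133 and miR-1 members by arm of the target sequence on each array; solid and dotted lines are both thresholds as above. In gill the 12 miR-133 probes of the 3p type lie at 124.1 to 168.4. No more than 7 blank spots there, the brightest at 202.7, exceeded any of them, as for 36.2% of all miRNA probes. In the other organs they lie among the blank spots.

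Differences between organs were measured after normexp background correction, log2 conversion and quantile normalization, and a difference of 2-fold or more was counted among probes detected in both organs. Between intestine and gill 197 probes were compared. Of the 4 members among them, all miR-1, 4 were at least 2-fold higher in intestine, beside 39.6% of the 197 probes. Members detected in gill alone were left out by this rule. Among those, pma-miR-1a-3p had normalized log2 levels of 7.7 in intestine and 7.3 in gill, and pma-miR-1b 7.13 and 7.06. For odi-miR-1c the levels were 7.01 and 7.05, and for dre-miR-206 7.82 and 7.14. The log2 difference was 2.06 ± 0.08 for dre-miR-1 (SD from the repeat spots before normalization between arrays), 1.99 ± 0.07 for pma-miR-1c-3p, 1.93 ± 0.10 for xtr-miR-1a and 1.61 ± 0.14 for cin-miR-1-3p. The median of the 4 was 1.96, and that of all 197 probes was 0.45.

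The size of this difference depended on the scaling between arrays. Without normalization between arrays the median of the 4 probes was 0.00 and that of the 197 probes was -1.62, so the miR-1 densities were alike while the shared probes were on the median dimmer on the intestine array. After centring on the spike-ins the miR-1 median was 0.25, on the 75th percentile 0.30 and on 5S rRNA 0.65, and 0 of 4 probes then reached 2-fold. Relative to the median of the shared probes, the miR-1 median was 1.51 with quantile normalization and 1.35 to 2.40 in 12 alternatives. Of these alternatives, 5 only shift whole arrays and give the same 1.62 by construction, so they are not separate checks of this relative value. The values of the authors' deposited table, whose scaling is not stated, ran from 207.2 to 270.0 in gill and from 885.5 to 1537.6 in intestine for these 4 probes. By these 4 probes, a higher share of miR-1 in intestine relative to the probes detected in both organs was thus measured in each of these settings. It does not extend to the miR-1 probes detected in gill alone, whose levels are given above. Whether the absolute level of miR-1 differed was not settled.

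Between hepatic caecum and the other organs 0 members could be compared under the detection threshold, among 117 probes shared with gill and 116 shared with intestine. Against intestine only a bound was available, taken after quantile normalization from the lowest level of any probe detected in hepatic caecum. By it, pma-miR-1c-3p was at least 1.57-fold higher in intestine, dre-miR-1 at least 1.53-fold and xtr-miR-1a at least 1.44-fold. In densities without normalization these 3 probes were at 1.17, 1.16 and 1.09 times the hepatic caecum threshold of 617.9. The intestine density of cin-miR-1-3p, 529.0, was under that threshold, so an equal density in hepatic caecum would have gone undetected. Against gill the bounds were under 1 and give no fold.

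With the median-based threshold, an alternative chosen after the data were seen, the 4 miR-1 probes and dre-miR-206 could be compared. Hepatic caecum was below intestine by log2 differences of -2.31 ± 0.19 for dre-miR-1, -2.29 ± 0.23 for xtr-miR-1a, -2.28 ± 0.02 for cin-miR-1-3p and -2.17 ± 0.11 for pma-miR-1c-3p. Thus 4 of 5 members were at least 2-fold lower, beside 20.3% of the 237 probes compared, and the median of these probes was 0.02. For dre-miR-206 the difference was -0.61 ± 0.30, under 2-fold. The miR-1 median of -2.28 stayed between -4.00 and -1.93 in 10 alternatives. The miR-1 spots of this array carry other names in the deposited annotation, and the authors' deposited table lists 138.2 under the name given to the dre-miR-1 spots, 118.3 for those of pma-miR-1c-3p, 120.5 for those of xtr-miR-1a and 85.9 for those of cin-miR-1-3p.

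Against gill the miR-1 difference of the hepatic caecum depended on the scaling. The median of the 4 probes was -0.30 after quantile normalization, beside 0.28 for the 258 probes compared, and 0 of 5 members reached 2-fold in either direction, beside 25.6% higher and 19.4% lower. The miR-1 median was -1.92 without normalization between arrays, -1.68 with the 75th percentile and -2.16 with spike-ins, and under each of these 4 of 5 members were at least 2-fold lower than in gill. With 5S rRNA it was -3.35 and 5 of 5 were lower. The median of all probes compared moved with these settings, to -1.88, -1.64, -2.12 and -3.31. The miR-1 median was 0.47 with cyclic loess and 0.37 with the median of shared probes. With the latter 1 of 5 members was at least 2-fold higher, namely dre-miR-206 and no miR-1 probe. The direction of the miR-1 median against gill is therefore not settled, whereas its direction against intestine was the same in the settings tried.

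**Figure D4:**
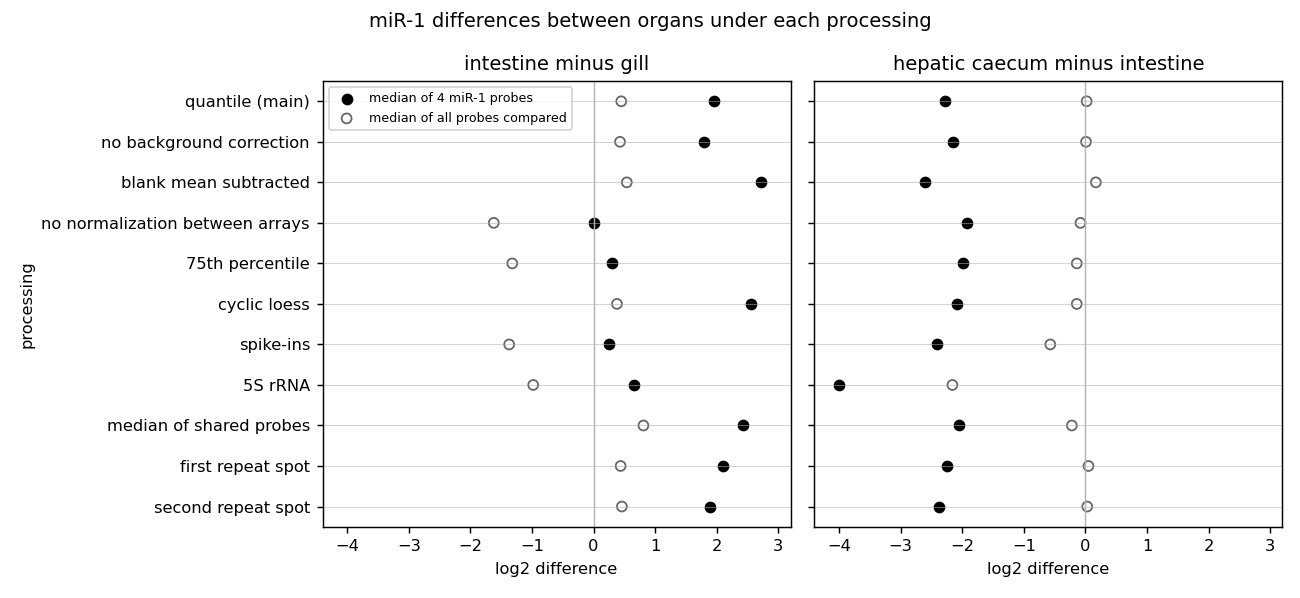
Median log2 difference of the 4 miR-1 probes (filled points) and of all probes compared (open points) between intestine and gill (left, 197 probes) and hepatic caecum and intestine (right, 237 probes over the median-based threshold) under quantile normalization and 10 alternatives. On the left the miR-1 median runs from 0.00 to 2.72 and lies above that of all probes in each setting shown; on the right it runs from -4.00 to -1.93 and lies below it. In the 5 settings that only shift whole arrays, the distance between the points is the same by construction, 1.62 on the left and -1.84 on the right.

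Under the names deposited with the hepatic caecum array, other members appeared bright. The authors' deposited table lists 7657.0 for bbe-miR-1-3p and 4873.2 for xtr-miR-133a in hepatic caecum, and these 2 were the only members over 1000 in that table for this organ. The spots deposited under these names had densities of 3879.0 ± 1359.6 and 2164.2 ± 22.1. The member xtr-miR-1b, is listed at 9.35 in the authors' deposited table, while its deposited spots disagreed, with a mean of 1354.5 ± 1681.1. In the turned placement the spots of these 3 names belong to bbe-miR-200c-3p, bbe-miR-4863-5p and pma-miR-196b, and bbe-miR-1-3p, xtr-miR-133a and xtr-miR-1b themselves had 177.8 ± 15.6, 172.0 ± 2.38 and 164.6 ± 1.39, near the blank median of 156.4. Under the deposited names 0 members passed the detection threshold, because the blank spots then averaged 1760.6 ± 6818.8.

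The probes whose difference between intestine and gill was nearest to the miR-1 median were sought among the 193 other probes detected in both organs, over 1 array per organ. They were bfl-miR-2076-3p at 1.96 ± 0.06, cin-miR-4171-5p at 1.94 ± 0.56 and cin-miR-92e-5p at 1.99 ± 0.20. In hepatic caecum they were unlike the miR-1 probes, since all 3 were detected there, at densities of 2938.2 ± 161.3, 12386.9 ± 4243.9 and 1089.2 ± 120.3.

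Other miRNAs linked to muscle in vertebrates were read from a list of 6 families, 4 of which had probes. Of the 13 probes of miR-208 and miR-499, known from striated muscle, and of miR-143 and miR-145, known from smooth muscle, 1 was detected in gill, 0 in intestine and 0 in hepatic caecum. Of all miRNA probes 27.0%, 11.9% and 7.18% were detected there, and at the last 2 shares a count of 0 among 13 probes says little. The detected probe, pma-miR-208-3p, had 146.1 ± 10.9 in gill, 103.2 ± 4.96 in intestine and 178.6 ± 3.56 in hepatic caecum. Of these 4 families only miR-208 had a detected probe, and the miR-486 and miR-378 families had 0 probes on the array.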

How the data were processed

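Small RNA under 300 nt of organs pooled from 5 adults was tailed, tagged and stained with Cy3, per the labels' protocols. For each of 3968 spots per array, the deposited scanner values are median densities, an intensity on a linear scale from which no background was subtracted. The authors' deposited series table gives a processed intensity per probe, and its background correction and scaling are not given in the sources used here. Spots were corrected with normexp (offset 50) on all spots, converted to log2, averaged over the 2 spots of a probe and quantile-normalized over the miRNA probes of the 3 arrays with limma 3.58.1 in R 4.3.3. Other steps used Python 3.11.15, numpy 2.4.6, pandas 2.3.3 and matplotlib 3.10.9. Sequences were compared without gaps, at the offset with most matching bases. The grid search and the normalization were tested on simulated data. No test between organs was possible. Every member detected on any array and every bbe or bfl member was to be described with values, the others by count and range. The members, lists and rules were chosen with earlier results of these data known. The number of arrays limits the precision.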

Additional observations from a re-analysis of the deposited data

How the results depend on the processing

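The detection counts of 15, 4 and 0 members in gill, intestine and hepatic caecum became 16, 7 and 6 with the median-based threshold. With the highest of the 3 thresholds used on every array 4 members passed in gill, and no other rule of detection moved a count by over 1.5 times. The median log2 difference of the 4 miR-1 probes between intestine and gill was 1.96. It was 1.79 without background correction, 2.72 with the blank mean subtracted, 2.56 with cyclic loess, 2.43 with the median of shared probes, 2.10 from the first repeat spots and 2.49 in the authors' deposited table. It was 0.00 with no normalization between arrays, 0.30 with the 75th percentile, 0.25 with spike-ins and 0.65 with 5S rRNA, which rests on 3 probes, and under each of these 4 settings 0 probes reached 2-fold in place of 4. With no normalization between arrays the difference changed sign for cin-miR-1-3p (-0.25 ± 0.14, SD from the repeat spots). For pma-miR-1c-3p it was -0.02 ± 0.07, no difference beyond the spot SD. Relative to the median of the 197 shared probes, the miR-1 median of 1.51 was 1.62 under the 5 settings that only shift arrays, 1.35 without background correction, 2.18 with the blank mean subtracted, 2.17 with cyclic loess, 1.66 from the first repeat spots and 2.40 in the authors' deposited table. The deposited names of the hepatic caecum left the comparison of intestine with gill as it was. No paired analysis was possible because each organ had 1 sample. Signals near the blank spots limit the miR-133 values on all arrays and all values of the hepatic caecum.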

Other observations

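In hepatic caecum the 2 spots of cin-miR-1-5p disagreed, at densities of 137 and 406, and its mean of 271.7 ± 190.5 passed the median-based threshold on the strength of the brighter spot. The same held for dre-miR-499, at 303.0 ± 215.1, and pma-miR-143-3p, at 222.0 ± 79.5. In gill cin-miR-1-5p had 110.7 ± 1.76 and dre-miR-499 had 110.7 ± 10.4, near the blank mean of 107.4.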
